A study of Mus musculus with 3 samples.

Results

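The cells were KO-actin MEFs, mouse embryonic fibroblasts that lost β-actin and were then made to express a form of it tagged with a nuclear localization signal (NLS), a Beta-actin KO-NLS genotype that all samples share. RNA-Seq of their polyadenylated RNA gave 3 libraries of 1 condition, numbered replicates 1 to 3, and the labels do not say whether these were separate cultures. Any p-value therefore measures only the spread between these libraries, which may be technical. The values below describe 10 genes of glycolysis chosen by symbol, Hk1, Hk2, Gpi1, Pfkl, Pfkp, Aldoa, Gapdh, Pgk1, Pkm and Ldha, out of 46603 genes in the count files. All 10 were found and had more than 3 counts in every library. Libraries of wild-type and KO cells were not analysed here, and the values hold for KO-actin cells only.

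Glycolysis turns glucose into pyruvate in the cytosol. Hexokinase traps glucose as glucose-6-phosphate, glucose-6-phosphate isomerase and phosphofructokinase prepare the sugar for cleavage, and aldolase splits it. Glyceraldehyde-3-phosphate dehydrogenase and phosphoglycerate kinase then begin the energy-yielding phase, pyruvate kinase ends it, and lactate dehydrogenase reduces pyruvate to lactate and restores NAD+. Most of these steps have several isoenzymes, which are encoded by separate genes and used in different tissues, and the abundant ones have left many processed pseudogenes (intronless copies made from mRNA) in the mouse genome.

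The libraries held 49932446, 49587453 and 44383636 counts in replicates 1, 2 and 3. Levels are given as CPM (counts divided by the library's size, which was adjusted by the TMM method of edgeR) within a gene, and as CPM per kilobase of the principal coding transcript between genes. Errors are SD over the 3 libraries. All 8 fibroblast markers looked at, among them Vim, Col1a1 and Sparc, were above 3 counts in every library, at a summed 13626 to 14708 CPM, most of it from Vim, Col1a1 and Fn1. Thy1 was low, at 0.821, 0.588 and 1.10 CPM, and Pdgfra had 4.97 ± 0.286. The summed markers of hepatocytes, skeletal muscle, blood, epithelium, neurons and male germ cells reached at most 3.09 CPM per list in any library, and the muscle markers Ckm, Myog and Myh1 had 0 counts, while Acta1, also in the muscle list, had 121, 102 and 122, and Snap25 of the neuronal list 103, 72 and 96. Actb, the gene that had been knocked out, was counted at 1085 ± 25.9 CPM, and gene counts do not show from which copy its RNA came.

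Pkm dominated the group. The 10 genes held 0.549%, 0.571% and 0.542% of all counts in replicates 1, 2 and 3, and Pkm alone held 51.2%, 51.4% and 51.2% of the counts of the 10. Per kilobase the order was Pkm, Ldha, Aldoa, Gapdh, Gpi1, Hk1, Pfkl, Pgk1, Pfkp and Hk2, from 1169 ± 41.9 down to 12.1 ± 0.165 CPM per kilobase. Each neighbour in this order was above the next in 3 of 3 libraries. The values of Hk1 and Pfkl nevertheless overlapped between libraries, with Hk1 ahead by 1.10-fold on average, and Gpi1 led Hk1 by 1.07-fold. All other neighbouring pairs were at least 1.27-fold apart. Two-sided p was 0.25 for every pair in an exact sign-flip permutation, the smallest value that 3 libraries allow, so no pair could pass 0.05. Among the 46005 genes with an annotated length, Pkm ranked 18, Ldha 93, Aldoa 132 and Gapdh 369 per kilobase, while Hk2 ranked 5991.

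**Figure D1:**
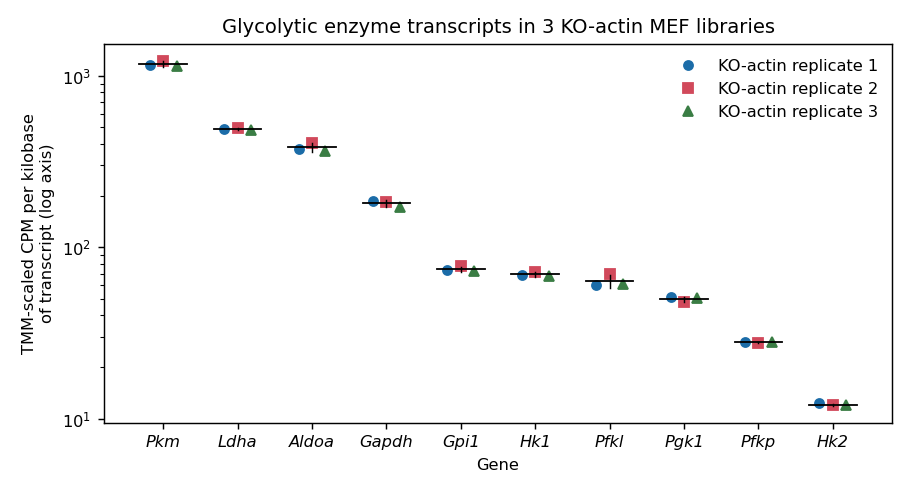
Level of each glycolytic enzyme gene in the 3 KO-actin libraries, as TMM-scaled CPM per kilobase of transcript on a log axis. Symbols are libraries, horizontal lines means and vertical lines SD (n = 3). Pkm is highest at 1169 and Hk2 lowest at 12.1 CPM per kilobase, and the 3 libraries lie close together for every gene.

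The first step of glycolysis was represented mainly by Hk1, the widely expressed hexokinase. Hk1 (chromosome 10, 62268855 to 62379908, minus strand, GRCm38) had 264, 276 and 262 CPM in replicates 1, 2 and 3. Hk2 (chromosome 6, 82725025 to 82774454, minus strand), the inducible hexokinase of muscle, fat and many tumours, had 67.6, 65.8 and 66.5 CPM. The Hk2 values were almost the same in all 3 libraries, and those of Hk1 were highest in replicate 2. Per kilobase Hk1 was 5.74-fold above Hk2, with 5.58-fold to 6.01-fold in single libraries (exact sign-flip permutation test, two-sided p = 0.25). Over the union of all annotated exons, which is much longer than the principal transcript for Hk1, the ratio was 2.80-fold.

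Of the summed level per kilobase of Hk1, Hk2, Hk3 and Hkdc1, Hk1 made up 85.1% ± 0.503 and Hk2 14.8% ± 0.505 (SD, n = 3). Hkdc1 and Hk3 were at or under the limit of detection. Hkdc1 had 2, 2 and 3 counts, and Hk3, a hexokinase of blood cells, had 0, 1 and 0. A count of 0 allows up to 3 counts, which is 0.0601, 0.0605 and 0.0676 CPM in replicates 1, 2 and 3 and covers counting error only. No 50-base stretch of the principal Hk1 or Hk2 transcript occurred in a transcript of another gene. Within these transcripts, exact matches of 50 bases to other annotated genes therefore do not affect the values. Shorter or inexact matches were not searched for, and the read length is not given. Exons outside the principal transcripts were not searched, and 1.84% of the exonic bases of Hk1 overlapped Hk1os on the opposite strand.

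Gpi1, which converts glucose-6-phosphate to fructose-6-phosphate and lies on chromosome 7 from 34201330 to 34230336 on the minus strand, had 212, 223 and 210 CPM (mean 215 ± 6.81). The spread was small, with replicate 2 highest. Of its 50-base windows, 25.3% also occurred in other genes, and 11.5% of its exonic bases overlapped Gm26762 on the opposite strand. The pseudogene Gm1840 on chromosome 8 was its only copy elsewhere with at least 10% of the windows, and it carried 652, 742 and 580 counts against 10604, 10969 and 9367 on Gpi1.

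Phosphofructokinase is the main point of control of the pathway. Per kilobase of the principal transcript, it was the only one of these enzymes whose isoenzyme genes lay close to one another. Pfkl (chromosome 10, 77986947 to 78010083, minus strand), the liver type, had 223, 259 and 226 CPM. Pfkp (chromosome 13, 6579768 to 6648777, minus strand), the platelet type, had 117, 115 and 115 CPM, and Pfkm, the muscle type, had 122, 125 and 122. Pfkl thus stood highest in replicate 2, whereas the other two were nearly flat.

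Per kilobase, Pfkl contributed 47.2% ± 1.91, Pfkm 31.9% ± 0.923 and Pfkp 20.9% ± 0.991 of the family (SD, n = 3). Pfkl was 2.26-fold above Pfkp and 1.48-fold above Pfkm, and Pfkm was above Pfkp, with a log2 ratio of Pfkp to Pfkm of -0.61 ± 0.0285. Each order held in 3 of 3 libraries (exact sign-flip permutation test, two-sided p = 0.25 for each). The place of Pfkl rested on the length used. With the union of all annotated exons in place of the principal transcript, the log2 ratio of Pfkl to Pfkm was -0.061 in place of 0.56, and that of Pfkl to Pfkp 2.03 in place of 1.18. The log2 ratio of Pfkp to Pfkm was then -2.09. By this length Pfkp lay further from Pfkl and Pfkm than Hk2 from Hk1 (log2 ratio of Hk1 to Hk2 1.49). Pfkp also shares its 3′ end with Pitrm1, a peptidase gene on the opposite strand with 12195, 11878 and 10531 counts, and this overlap held 17.1% of the Pfkp windows. Whether counting used the strand is not given in the sources used here, so the counts of these genes cannot be told apart within the overlap. Of the exonic bases of Pfkm, 10.2% overlapped Gm26513 on the same strand, although no window of its principal transcript occurred in another gene.

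**Figure D2:**
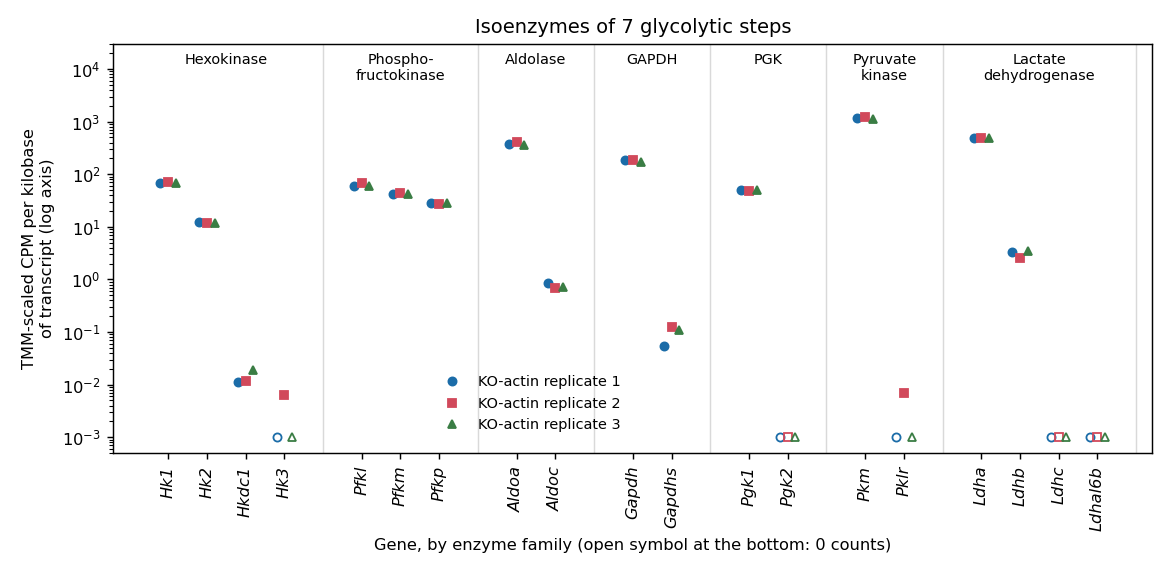
Isoenzyme genes of 7 glycolytic steps in the 3 KO-actin libraries, as TMM-scaled CPM per kilobase of transcript on a log axis, with 0 counts drawn as open symbols at the bottom. Only phosphofructokinase has 3 genes within a narrow band, from 27.9 to 63.3 CPM per kilobase, and in the 5 families drawn to the right of it 1 gene holds over 99% of the level of the genes shown. Enolase, which is not drawn, did not follow this. Its genes Eno1 and Eno1b share 72.2% and 84.5% of their windows with other genes. Over the union of all annotated exons, which is not drawn, the band of phosphofructokinase was wider, with Pfkl 4.085-fold above Pfkp.

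For aldolase, glyceraldehyde-3-phosphate dehydrogenase, phosphoglycerate kinase, pyruvate kinase and lactate dehydrogenase, a single isoenzyme gene held nearly all of the level of the genes compared. Aldoa (chromosome 7, 126795234 to 126800751, minus strand), the aldolase of muscle and most other tissues, had 579.9, 630.0 and 563 CPM. Replicate 2 was again the highest. Per kilobase it was 510-fold above Aldoc, the brain type (range 445 to 588 over libraries), or 318-fold over all annotated exons. The Aldoa level was 99.8% of the sum of Aldoa and Aldoc.

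Pkm (chromosome 9, 59656368 to 59679375, plus strand) had 2814, 2955 and 2758 CPM, a mean of 2842 ± 102. It encodes the M1 and M2 pyruvate kinases, which differ by a pair of mutually exclusive exons, and counts per gene do not separate them. Of the exonic bases of Pkm, 15.3% overlapped Gm49759 on the same strand. Pklr, the pyruvate kinase of liver and red cells, had 0, 1 and 0 counts, against 409275 on Pkm over the 3 libraries. The pooled ratio per kilobase was 488000, with an exact Poisson interval of 87700 to 19300000 for counting error, so its size is known only roughly.

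Ldha (chromosome 7, 46841475 to 46855627, plus strand), whose subunit predominates in lactate-producing tissues, had 859, 873 and 853 CPM. With an SD of 10.2 around a mean of 862 its relative spread was, after that of Pfkp, the smallest of the 10. Ldhb, the heart type, had 219, 165 and 201 counts, which placed Ldha 157-fold higher per kilobase (140 to 192 in single libraries), or 101-fold over all annotated exons. The Ldha share of lactate dehydrogenase was 99.4% ± 0.105 (SD, n = 3). Ldhc and Ldhal6b, both of the male germ line, had 0 counts in every library. All exonic bases of Ldhal6b overlap Gm29050, a gene on the opposite strand with 0, 7 and 1 counts. Whether counting used the strand is not given, so the 0 counts of Ldhal6b do not show that its RNA was absent.

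Pgk1 (chromosome X, 106187100 to 106203699, plus strand) had 93.2, 87.4 and 92.3 CPM, the only member besides Hk2 and Pfkp with its lowest value in replicate 2. Pgk2, its intronless relative in the testis, had 0 counts in every library, and with 3 counts over the 3 libraries as the upper limit Pgk1 was at least 3880-fold higher per kilobase. Gapdh (chromosome 6, 125161715 to 125166467, minus strand) had 263, 262 and 243 CPM and stood 1992-fold above the sperm isoenzyme Gapdhs, which had 4, 9 and 7 counts. That ratio ranged from 1474 to 3365 over libraries. It also depended on the handling of length and copies, at 756-fold over all annotated exons, 6320-fold with copies added and 10870-fold over windows that no other gene holds. For Aldoa, Gapdh and Ldha against these isoenzymes two-sided p was 0.25 (exact sign-flip permutation).

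Among the 10, Gapdh and Pgk1 had the largest shares of sequence in common with other genes. Of the 50-base windows of the Gapdh transcript, 82.5% occurred in at least 1 of 222 other annotated loci, 213 of them pseudogenes. For Pgk1 the share was 68.0%, with 5 pseudogenes. It was 34.4% for Pkm, 17.1% for Ldha and 13.5% for Aldoa, and with longer windows of 100 bases it was 9.82% for Pkm, 1.32% for Ldha and 0% for Aldoa, against 78.0% for Gapdh and 67.0% for Pgk1.

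**Figure D3:**
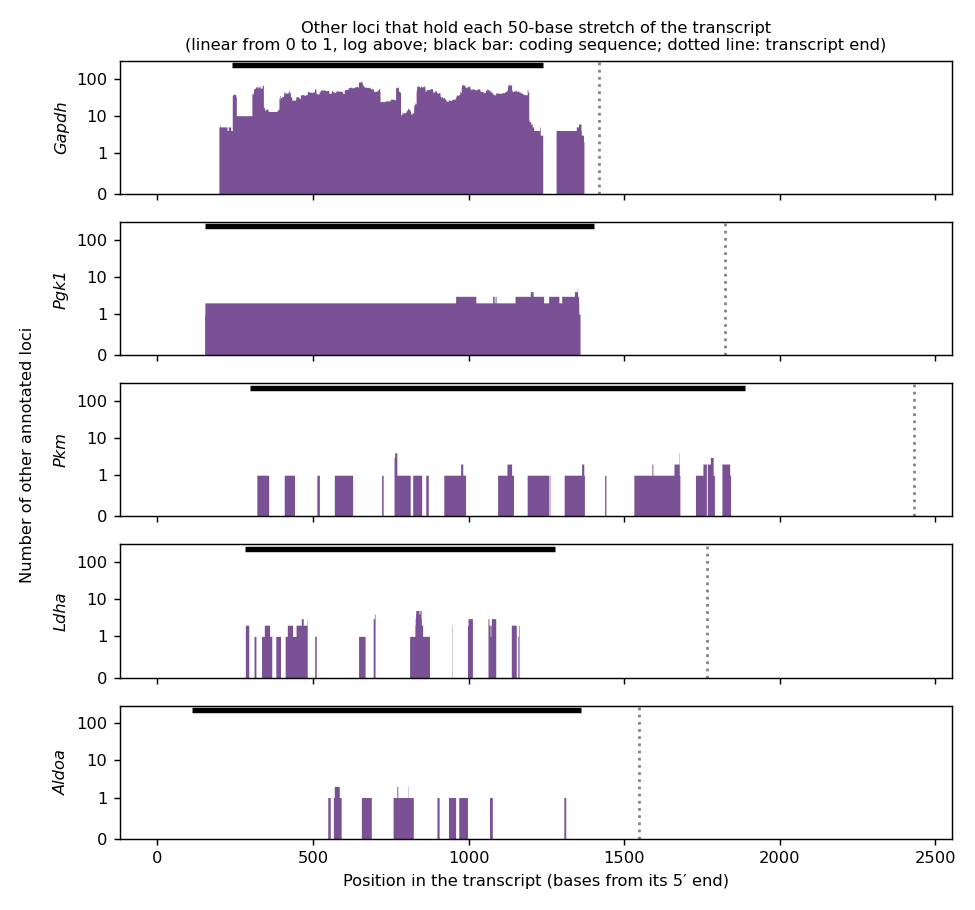
Number of other annotated loci that hold each 50-base window along the transcripts of 5 glycolytic enzyme genes, by position from the 5′ end, on an axis that is linear up to 1 and logarithmic above. The black bar is the coding sequence and the dotted line the end of the transcript. Shared windows cover the whole coding sequence of Gapdh and of Pgk1, and occur in separate stretches in Pkm, Ldha and Aldoa. Each window is drawn at its first base, so for Pgk1 the drawn area ends before the coding sequence does.

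Pseudogenes of Gapdh were counted more often than Gapdh itself. The processed pseudogene Gm13394 (chromosome 2, 28933610 to 28934609, minus strand) had 15975, 16367 and 13430 counts, against 13118, 12925 and 10878 on Gapdh. Gm7336 (chromosome 7, 51746647 to 51747878, plus strand) had 9961, 9285 and 8378. Gm13394 was above Gapdh and Gm7336 below it in 3 of 3 libraries.

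The third gene of this kind by counts, the non-coding Gm47854 on chromosome 9, had 1013, 1370 and 911, and 92.6% of its windows were not in Gapdh. All 67 counted genes with at least 10% of the Gapdh windows summed to 2.15, 2.18 and 2.19 times the Gapdh counts in replicates 1, 2 and 3. Of 196 counted pseudogenes that share any window with Gapdh, 49 had 0 counts in every library and 30 had at least 10 in every library. Gm13394 and Gm7336 together carried 93.9% of the pseudogene counts.

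Both of these copies are close to exact. Over the 999 coding bases of Gapdh, Gm13394 differs by 1 substitution, A346C, with positions counted from 1 at the first base of the start codon and the Gapdh base given first. Gm7336 does not differ at any of the 999. The 60 bases around that position, coding bases 316 to 375, are shown because they hold the only coding base that separates Gapdh from the more highly counted copy, and the capital marks it. They lie at chr6:125162987-125163144 (minus strand, split by an intron), chr2:28934235-28934294 (minus strand) and chr7:51747012-51747071 (plus strand) of GRCm38.
Gapdh: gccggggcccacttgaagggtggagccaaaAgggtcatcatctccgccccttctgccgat
Gm13394: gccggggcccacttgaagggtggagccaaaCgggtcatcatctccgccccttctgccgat
Gm7336: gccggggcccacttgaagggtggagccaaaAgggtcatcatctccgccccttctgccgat

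Of the 951 windows of Gm13394, 901 are also in Gapdh and 50 are in no other annotated gene. None of the 1183 windows of Gm7336 is free of matches to another gene, yet this pseudogene carried counts in every library. The read length and the treatment of reads that match several places are not given in the sources used here, and whether the counts on these copies came from their own RNA or from Gapdh mRNA was not tested.

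Pgk1 showed the opposite pattern, with exact copies that held few counts. Pgk1-rs7 on chromosome 12 and Gm5537 on chromosome 3 do not differ from Pgk1 over the 1250 and 1251 coding bases that could be compared. Coding bases 4 to 63 are shown for Pgk1 as an example of such a stretch, at chrX:106187254-106187313 (plus strand), and they read the same at chr12:10900179-10900238 (minus strand) in Pgk1-rs7 and at chr3:58104185-58104244 (minus strand) in Gm5537.
Pgk1: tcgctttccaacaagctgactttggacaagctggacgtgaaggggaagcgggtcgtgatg

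Pgk1-rs7 had 192, 158 and 158 counts and Gm5537 had 0 in every library, although every window of both occurs in Pgk1. Together they came to 0.0413, 0.0367 and 0.0383 times the Pgk1 counts. For Pkm the only counted copy elsewhere with at least 10% of its windows, Gm6560 on chromosome 5, had 541, 610 and 562 counts, which is 0.00419 times Pkm. Aldoa, Ldha and Pfkl had no counted gene at that share of windows.

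The levels per kilobase depended on how these shares were treated. In 1 treatment the counts stayed as deposited and only the divisor changed, to the number of windows that no other gene holds, as if no read from shared windows had been counted. Gm7336 has no such window and still carried counts, so windows of this length do not settle which reads were counted, and the higher values follow from the smaller divisor. With 240 such windows the Gapdh level was 1067 ± 46.0 CPM per kilobase, against 180 ± 7.77 over the full length, and its place among the 10 moved from 4 to 2. Adding the counts of its copies instead gave 572 ± 22.6 and the same place of 2. Pgk1 went from 49.8 ± 1.71 to 160 ± 5.50 over unshared windows and to 51.8 ± 1.88 with copies added. Under these 3 treatments Pkm stayed at place 1, Pfkp at place 9 and Hk2 at place 10, but over the union of all annotated exons Hk2 (11.2 CPM per kilobase) was above Pfkp (8.64).

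**Figure D4:**
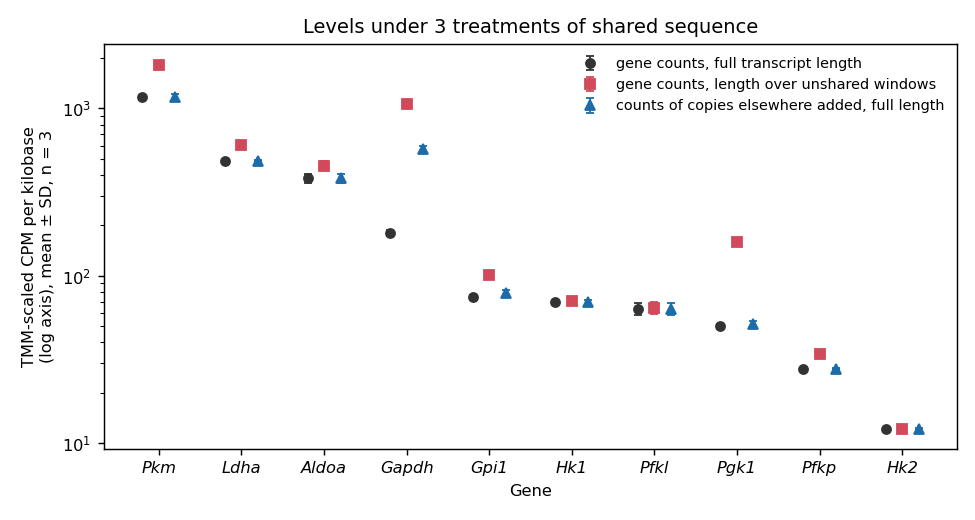
Level of each glycolytic enzyme gene (TMM-scaled CPM per kilobase, log axis, mean ± SD, n = 3) with the full transcript length, with the length over windows that no other gene holds, and with the counts of copies elsewhere added. Gapdh moves most, between 180 and 1067 CPM per kilobase, Pgk1 moves from 49.8 to 160, and Hk1 and Hk2 keep nearly the same values, 69.4 to 70.3 and 12.1 to 12.2.

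Around the transcription starts, 7 of the 10 genes had ACGTG, the core of many hypoxia response elements, which hypoxia-inducible factors bind, on either strand within 250 bases before to 50 bases after a RefSeq start (GRCm38.p6). These were Hk1, Hk2, Aldoa, Gapdh, Pgk1, Pkm and Ldha, each at 1 or more of its starts. Of all 27025 genes with such a window, 21.8% had the same letters at 1 or more starts. Genes with more starts have more windows to match in, which was not adjusted for, and no test was made. The palindrome CACGTG, an E-box that Myc proteins can bind and which contains ACGTG on both strands, was found in Ldha alone among the 10 and in 8.09% of all genes. In Gapdh and Hk1 the letters lay after the start only. For the other 5 genes the 60 bases around the upstream match nearest to a start are shown, with the matches in capitals. They lie at chr7:46845743-46845802 (Ldha, plus strand), chr6:82774474-82774533 (Hk2, minus strand), chr7:126799348-126799407 (Aldoa, minus strand), chrX:106186942-106187001 (Pgk1, plus strand) and chr9:59657125-59657184 (Pkm, plus strand).
Ldha: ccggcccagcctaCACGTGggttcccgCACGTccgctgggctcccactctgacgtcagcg
Hk2: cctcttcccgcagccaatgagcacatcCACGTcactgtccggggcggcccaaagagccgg
Aldoa: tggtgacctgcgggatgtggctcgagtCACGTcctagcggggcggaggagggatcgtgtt
Pgk1: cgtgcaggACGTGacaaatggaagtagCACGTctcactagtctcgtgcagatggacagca
Pkm: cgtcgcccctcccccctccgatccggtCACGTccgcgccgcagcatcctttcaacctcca

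Gpi1, Pfkl and Pfkp, at places 5, 7 and 9 of the order per kilobase, had no such match in these windows. A match says only that the letters are there.

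Among other genes of the pathway, all 8 that encode the isomerase, mutase and enolase steps were above 3 counts in every library. Tpi1, which interconverts the products of aldolase, had 313 ± 12.4 CPM per kilobase, Pgam1 382 ± 5.47 and Eno1 318 ± 13.0. These values lay between Gapdh and Ldha over the full length, and the lowest of the list by CPM was Eno4, at 1.41 ± 0.167 CPM. Enolase was spread over several genes, with 61.8% ± 1.14 of its summed level per kilobase on Eno1, 25.4% ± 1.12 on Eno1b and 10.6% ± 0.388 on Eno3 (SD, n = 3). Eno1, Eno1b and Pgam1 share sequence with other genes too, 72.2%, 84.5% and 41.5% of their windows. The split of the level between Eno1 and Eno1b may therefore depend on how reads matching several genes were counted, which is not given.

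At the entry and exit of the pathway, the glucose transporter Slc2a1 had 50.7 ± 2.78 CPM per kilobase, while Slc2a3 had 7, 4 and 14 counts. The lactate transporter Slc16a1 had 32.7 ± 0.672 CPM per kilobase and Slc16a3, another lactate transporter, 0.300 ± 0.0495. Basigin (Bsg), which carries these transporters to the membrane, had 559 ± 17.9. Slc2a1 and Slc16a1 were thus the highest of the glucose and the lactate transporters listed, in every library.

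Of 16 regulators, 14 were above 3 counts in every library. The transcription factors Myc, Arnt and Hif1a had 63.0 ± 4.43, 39.0 ± 0.795 and 28.9 ± 1.16 CPM per kilobase, and Epas1 0.268 ± 0.0197. Pfkfb3, which makes the activator of phosphofructokinase, had 14.6 ± 0.531. Fbp1 and Fbp2, the fructose bisphosphatases that work against it, had 0 counts in every library.

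The 10 genes varied little among the 3 libraries, but most of them varied by more than counting error. A chi-square of the counts against the library sizes, adjusted by Benjamini-Hochberg over all genes that had 10 or more counts in each library, called 8 of the 10, all but Hk2 and Pfkp. The same test called 43.9% of all 13814 genes tested and 67.3% of the 4939 genes with at least 50 CPM, so 8 of 10 is near the share for genes of such levels. The size was small. The median ratio of the highest to the lowest library was 1.06 for the 10, 1.07 for genes of at least 50 CPM and 1.11 for all genes tested.

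Pfkl had the largest range, 1.16-fold between 223 CPM in replicate 1 and 259 in replicate 2 (chi-square, adjusted p = 4.84e-34). Aldoa followed at 1.12-fold (adjusted p = 2.88e-41). For Pgk1 the adjusted p was 0.0148, for Ldha 0.0103, a call that was lost with library sizes as total counts, and for Hk2 and Pfkp 0.632 and 0.772. These p-values rest on deep counts, up to 145635 in a single library for Pkm, and they compare libraries, not conditions.

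**Figure D5:**
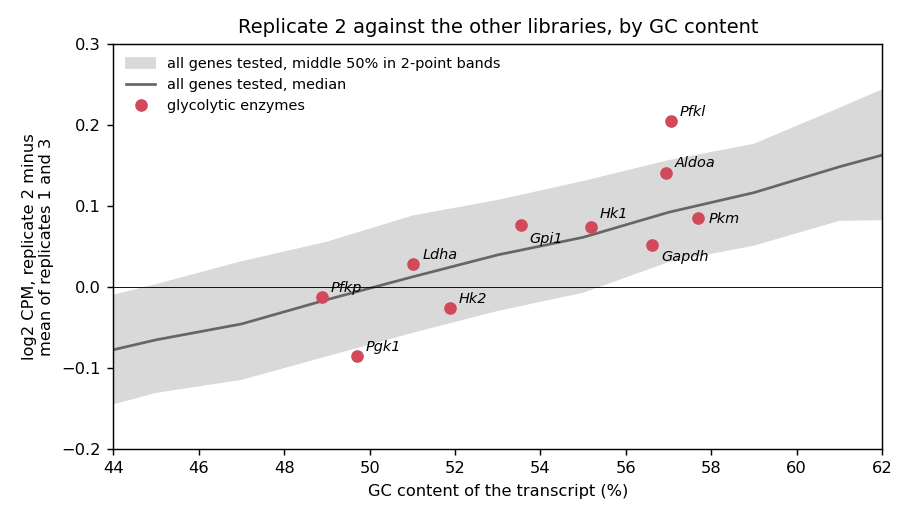
Difference of replicate 2 from the mean of replicates 1 and 3 (log2 CPM) against the GC content of the transcript, for the glycolytic enzyme genes (points) and for all genes tested (line, median in bands of 2 percentage points, and grey area, middle 50%). The line climbs with GC content, and 8 of the 10 points lie in the grey area, with Pfkl above it at 0.20 and Pgk1 below it at -0.086.

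Replicate 2 differed from the others with GC content. Its log2 difference from the mean of replicates 1 and 3 had a median of -0.10 among the 25% of genes with the lowest GC content and 0.11 among the 25% with the highest. Pfkl, at 57.1% GC, lay at 0.20, where genes of 56% to 58% GC had a median of 0.092. Pgk1, at 49.7% GC, lay at -0.086, and genes of 48% to 50% GC at -0.016. The other 8 were within the middle 50% of genes of their GC content.

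Counted within 50 bins of GC content, 4 of the 10 passed (Pfkl, Aldoa, Gapdh and Pgk1), with 29.3% of all genes. Without replicate 2, 3 passed (Aldoa, Gapdh and Pkm), with 12.5% of all genes. Without replicate 1 the number was 7, with 33.1% of all genes, and without replicate 3 it was 6, with 34.0%. The part of GC content in the differences between libraries was not tested.

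In the other lists of the pathway, 5 of the 8 genes of the remaining steps were called, 3 of them enolase genes (Eno1, Eno3 and Eno1b). The test called 3 of 14 tested regulators (Pdk2, Hif1a and Myc), 2 of 5 tested genes of entry and exit (Slc2a1 and Bsg) and 1 of 3 tested isoenzymes (Ldhb), beside the same 43.9% of all genes tested.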

How the data were processed

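Each library came with a table of raw read counts by Ensembl gene, which the authors deposited without scaling. The submitters' processing notes name Trimmomatic, FastQC, HISAT2 and HTSeq and the builds mm10 and GRCm38. Versions, settings, annotation release, strand setting and the treatment of reads with several matches are not given in the sources used here. DESeq2 was named by the study for its own contrasts, which need libraries not analysed here.

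Symbols, lengths and coordinates came from GENCODE M21 (GRCm38), which matched 46005 of 46603 genes, and promoter windows from RefSeq (GRCm38.p6), which held all 10 genes. TMM scaling was done with edgeR 4.0.16 (R 4.3.3). Total counts and the size factors of DESeq2 1.42.0 served as alternatives, beside leaving out each replicate, other lengths, added copies, GC bins and other count minimums. CPM per kilobase used the principal coding transcript. Shared sequence was the share of 50-base windows of that transcript found, on either strand, in annotated transcripts of other genes. Unannotated copies were not searched for. Variation among libraries was tested by chi-square with 2 degrees of freedom at an adjusted p of 0.05, a script checked on simulated data. Isoenzymes and neighbours were compared within libraries by an exact sign-flip permutation test, two-sided. Python 3.11.15, numpy 2.4.6, pandas 2.3.3, scipy 1.17.1 and matplotlib 3.10.9 were used.

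The named genes are the 10 enzymes, their isoenzymes (some are not reported here), the other steps, transporters and regulators, and for each enzyme the 3 most counted genes with at least 10% of its windows. Members and lists were chosen with earlier results of these data known.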

Additional observations from a re-analysis of the deposited data

How the results depend on the processing

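Other scalings (DESeq2 size factors, total counts) moved no mean CPM of the 10 genes by more than its SD, and by at most 0.0271%. All 45 pairs of the 10 genes kept their order per kilobase without any 1 replicate, 40 over unshared windows, 39 over all annotated exons and 39 with counts of sharing genes added. Of 49 recomputed log2 ratios of isoenzymes, 3 changed sign: Pfkl to Pfkm over all annotated exons (-0.061), and, with the counts of genes sharing windows added, Pfkl to Pfkp (-0.44) and Pfkp to Pfkm (1.01), because Pitrm1, which overlaps Pfkp, was then counted in. Leaving overlapping genes out, a setting chosen after seeing the data, kept 43 pairs and no ratio changed sign. The share of all counts on the 10 genes was 0.554%, 0.637% with sharing genes added and 0.613% with overlapping ones left out of these. Genes that varied among libraries numbered 6063 in all and 8 of the 10; with total counts 6070 and 7 (without Ldha), within bins of GC content 4037 and 4, and without 1 replicate 1748 to 4786 and 3 to 7, lowest in both cases without replicate 2. The Pgk1 to Pgk2 and Pkm to Pklr ratios were not recomputed, having at most 1 count in Pgk2 or Pklr. No paired analysis was possible because there is only 1 condition. Depth limits the rare isoenzymes, of which 7 had 10 or fewer counts in some library. It also limits low genes of the other lists, such as Slc2a3, Slc16a7, Fbp1 and Fbp2. No genome sequence was used, so sequence shared with unannotated copies was not counted.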
